A study of Mus musculus with 86 samples.

Results

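The 9 genes described here, whose counts were far lower in *Btbd18* knockout spermatocytes, were followed through every RNA table of the series. They are *Gldnos*, *Stox1*, *Fam174b*, *Gm5577*, *Kcnk10*, *Zfp820*, *Muc20*, *Eci3* and *Tmem82*, which are 9 of the 24276 features listed in each of 5 count tables, and they were chosen by their spermatocyte counts, which were far lower in knockout than in heterozygous libraries. The spermatocyte values are therefore a description of how they were chosen and carry no test. The other tables did not enter the choice.

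The series compared mice homozygous for a *Btbd18* knockout with heterozygous mice, all males of a C57BL/6 × 129/SvJ hybrid background, so the controls also carry 1 knockout allele. RNA was counted in 58 libraries. Whole testes were taken at postnatal days 10, 14, 18 and 28 (P10 to P28; 3 heterozygous and 3 knockout libraries at P10 and P18, 2 and 2 at P14 and P28), purified spermatocytes and round spermatids came from 4-month-old mice (3 and 3 of each), and small RNA came from testes at P10, P14 and P18, either without further enrichment (2 and 2, at P18 3 and 3) or labelled as enriched for piRNA (2 and 2 at each age). How the cells behind the RNA libraries were purified is not stated in the labels, and a purified fraction from a knockout may hold other cells than its name says. The remaining 28 samples were not analysed here.

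BTBD18 is a nuclear protein with a BTB domain. In male germ cells it is known for its part in the transcription of pachytene piRNA loci, long transcription units whose RNA is cut into PIWI-interacting RNAs (piRNAs) in meiotic spermatocytes. Many of these loci are transcribed in both directions from a shared start region and depend on the transcription factor A-MYB. Spermatocytes pass through meiosis and become round spermatids, and in the first wave of spermatogenesis these cells appear in the testis one after the other, so that cell composition changes with age. In testis libraries, fewer cells of a type and less RNA per cell cannot be told apart.

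The 9 genes have little in common by function. *Stox1* encodes a winged-helix protein and *Zfp820* a zinc finger protein, *Kcnk10* encodes a two-pore-domain potassium channel, *Eci3* a peroxisomal enoyl-CoA isomerase of fatty acid breakdown, and *Muc20* a membrane-bound mucin. *Tmem82* and *Fam174b* encode membrane proteins, and *Gldnos* and *Gm5577* are annotated as long non-coding RNAs. Each lies on a chromosome of its own. On build GRCm38.p6 their positions are chr9:54268580-54301570 (*Gldnos*), chr10:62659043-62726094 (*Stox1*), chr7:73740307-73776919 (*Fam174b*), chr6:87981683-87984180 (*Gm5577*), chr12:98429432-98578213 (*Kcnk10*), chr17:21816876-21845759 (*Zfp820*), chr16:32777419-32797435 (*Muc20*), chr13:34946614-34963988 (*Eci3*) and chr4:141614233-141618633 (*Tmem82*).

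Start regions are shown for 3 of the genes: *Gm5577*, which shares its start region with a gene on the other strand, *Zfp820*, whose start lies within a gene on the other strand and which alone was called in whole testes, and *Muc20*, as 1 of those higher in round spermatids than in spermatocytes. Sequences are the RefSeq windows of build GRCm38.p6, from 250 bases before to 50 bases after the annotated start, 5′ to 3′ on the gene's strand. Capitals mark a match to AACNGNC, a core of the motif bound by MYB proteins.
*Gm5577*, chr6:87981433-87981732, plus strand: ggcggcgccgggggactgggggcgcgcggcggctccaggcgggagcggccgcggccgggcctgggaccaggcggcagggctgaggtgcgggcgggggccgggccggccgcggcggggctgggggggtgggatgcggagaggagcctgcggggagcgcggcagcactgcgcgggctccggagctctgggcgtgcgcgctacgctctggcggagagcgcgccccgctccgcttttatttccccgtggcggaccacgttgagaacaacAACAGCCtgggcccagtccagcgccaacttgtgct
*Zfp820*, chr17:21845710-21846009, minus strand: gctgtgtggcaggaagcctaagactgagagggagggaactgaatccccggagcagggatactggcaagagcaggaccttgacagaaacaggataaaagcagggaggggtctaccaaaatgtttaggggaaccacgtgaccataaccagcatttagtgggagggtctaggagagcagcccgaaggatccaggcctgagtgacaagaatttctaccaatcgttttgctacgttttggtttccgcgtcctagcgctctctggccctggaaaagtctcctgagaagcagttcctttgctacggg
*Muc20*, chr16:32797386-32797685, minus strand: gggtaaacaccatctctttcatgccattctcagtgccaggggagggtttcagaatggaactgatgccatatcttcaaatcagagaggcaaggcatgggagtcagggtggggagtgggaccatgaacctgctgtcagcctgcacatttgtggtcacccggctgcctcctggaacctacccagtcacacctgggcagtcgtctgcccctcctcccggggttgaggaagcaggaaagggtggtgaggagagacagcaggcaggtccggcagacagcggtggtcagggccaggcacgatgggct
The *Gm5577* window lies between 2 genes that start 201 bases apart on opposite strands, *Gm5577* and *H1f10*, which encodes a linker histone, and the reference lists the same window in reverse for *H1f10*. Windows were found for 7 of the 9 genes (8 windows, 2 of them for *Kcnk10*). AACNGNC, searched on both strands, was in 1 of the 7 genes, *Gm5577*, 16 bases after its start, and in 32.8% of the 32851 promoter windows of the table. The other MYB core, CAACTG, was in 0 of the 7 genes against 13.7% of windows, the cyclic AMP response element TGACGTCA in 0 against 1.79%, and TATAAA in 0 against 13.6%. G and C made up 77.7% of the *Gm5577* window, 70.3% of that of *Stox1*, 59.3% of that of *Muc20* and 53.0% of that of *Zfp820*, beside a median of 52.7% over all windows.

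In purified spermatocytes all 9 genes had 25 to 1243 counts in each heterozygous library and 0 to 90 in each knockout library. These libraries came from a strand-marking kit, the strand setting used in counting is not given in the sources used here, and the counts printed under a gene may be of RNA from its opposite strand. Depth in these tables was low, 321800 to 514384 counts per spermatocyte library and 193711 to 543401 per round spermatid library, against 5822808 to 12260241 in testes. *Gldnos* had 772, 611 and 653 counts in heterozygous replicates 1 to 3 and 5, 2 and 6 in knockout replicates 1 to 3. *Stox1* had 504, 445 and 565 against 12, 10 and 8. *Fam174b* had 768, 423 and 577 against 10, 24 and 13. For these genes the genotypes are far apart, and in knockouts the few counts left differ between libraries. In CPM, counts scaled to the total of each library (mean ± SD, n = 3), the levels were 1591 ± 274 against 10.4 ± 5.38 for *Gldnos*, 1183 ± 202 against 23.9 ± 2.41 for *Stox1* and 1340 ± 142 against 39.1 ± 21.3 for *Fam174b*.

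*Gm5577* and *Zfp820* had more counts left in the knockouts. *Gm5577* had 1243, 912 and 1048 counts in heterozygous and 68, 51 and 90 in knockout libraries, and *Zfp820* had 773, 607 and 865 against 80, 89 and 34. *Kcnk10* had fewer counts in all, 131, 111 and 243 against 5, 1 and 7. Fitted log2 differences, knockout minus heterozygous and given as a description, ran from -3.38 ± 0.35 (SE) for *Zfp820* and -3.87 ± 0.32 for *Gm5577* to -5.58 ± 0.34 for *Stox1* and -7.21 ± 0.41 for *Gldnos*.

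*Muc20*, *Eci3* and *Tmem82* look different. *Muc20* had 193, 41 and 26 counts in the heterozygous replicates 1, 2 and 3 and 1, 0 and 0 in the knockouts. *Eci3* had 215, 41 and 25 against 0, 0 and 1, and *Tmem82* 372, 73 and 33 against 1, 0 and 2. In each of them replicate 1 held most of the heterozygous counts. With 1 to 3 counts left in the 3 knockout libraries together, the ratio of heterozygous to knockout is loose: 248 for *Muc20* (95% exact binomial interval 44.1 to 9830, counting error only), 268 for *Eci3* (47.7 to 10620) and 152 for *Tmem82* (51.7 to 739). Without heterozygous replicate 1 the fitted log2 difference moved from -7.48 to -6.24 for *Muc20*, from -7.57 to -6.21 for *Eci3* and from -7.05 to -5.65 for *Tmem82*. With so few knockout counts single knockout libraries weigh too: *Muc20* was at -9.35 without knockout replicate 1, and *Eci3* at -9.51 without knockout replicate 3.

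The same split appears when the purified cell types are set side by side, in tables that were counted and scaled separately. In heterozygous round spermatids *Muc20* stood at 923 ± 188 CPM (n = 3), *Eci3* at 865 ± 164 and *Tmem82* at 1666 ± 192, which is 4.97, 4.34 and 4.90 times their mean in heterozygous spermatocytes. The other 6 genes were lower in round spermatids than in spermatocytes, at 0.119 times the spermatocyte mean for *Gldnos*, 0.0638 for *Zfp820*, 0.0624 for *Gm5577*, 0.0316 for *Fam174b*, 0.0094 for *Kcnk10* and 0.0018 for *Stox1*. Heterozygous spermatocyte replicate 1 exceeded the mean of replicates 2 and 3 by a factor of 4.12 for *Muc20*, 4.65 for *Eci3* and 4.88 for *Tmem82*, against 0.595 to 1.18 for the other 6 and a median of 0.900 over the 2868 features at 50 CPM or more.

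**Figure D1:**
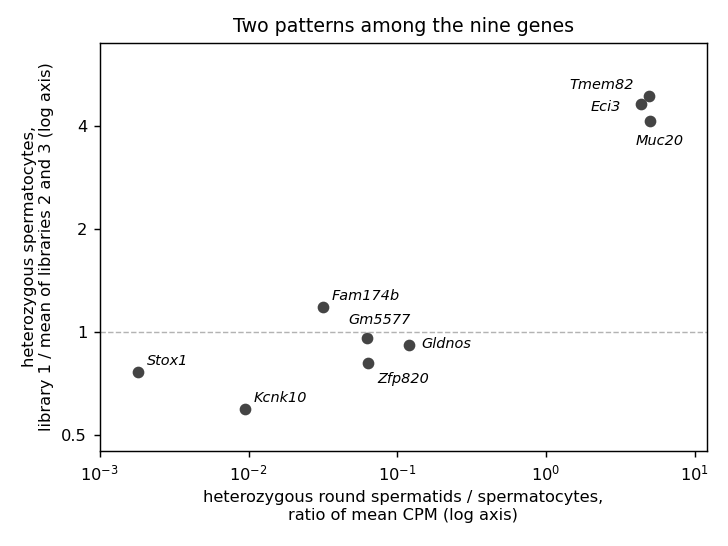
Ratio of mean CPM in heterozygous round spermatids to spermatocytes (x, log axis) against the ratio of heterozygous spermatocyte library 1 to the mean of libraries 2 and 3 (y, log axis), one point per gene. *Muc20*, *Eci3* and *Tmem82* sit at the upper right, with ratios of 4.34 to 4.97 (x) and 4.12 to 4.88 (y), and the other 6 genes sit left of 0.12 and between 0.595 and 1.18.

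Some markers of round spermatids were also highest in that replicate. *Tnp1*, which encodes a transition protein of spermatid chromatin, had 14, 0 and 0 counts in heterozygous spermatocyte replicates 1 to 3 and 0 in all knockout ones, and *Spaca1*, of the acrosome, had 19, 4 and 2 against 0, 0 and 1. Over the 8 round spermatid markers listed, the summed level was 391 CPM in replicate 1, 242 and 212 CPM in replicates 2 and 3, and 239 to 366 CPM in the knockout spermatocytes. *Acrv1*, an acrosome gene, was about level, with 3, 5 and 4 against 3, 7 and 1 counts. The part of spermatid RNA in the spermatocyte values of *Muc20*, *Eci3* and *Tmem82* was not tested. The 8 spermatocyte markers summed to 1639 to 4542 CPM in heterozygous and 1327 to 2314 CPM in knockout spermatocytes, and Sertoli markers to at most 10.4 CPM. Leydig markers summed to 513 to 696 CPM in heterozygous and 488 to 712 CPM in knockout spermatocytes.

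**Figure D2:**
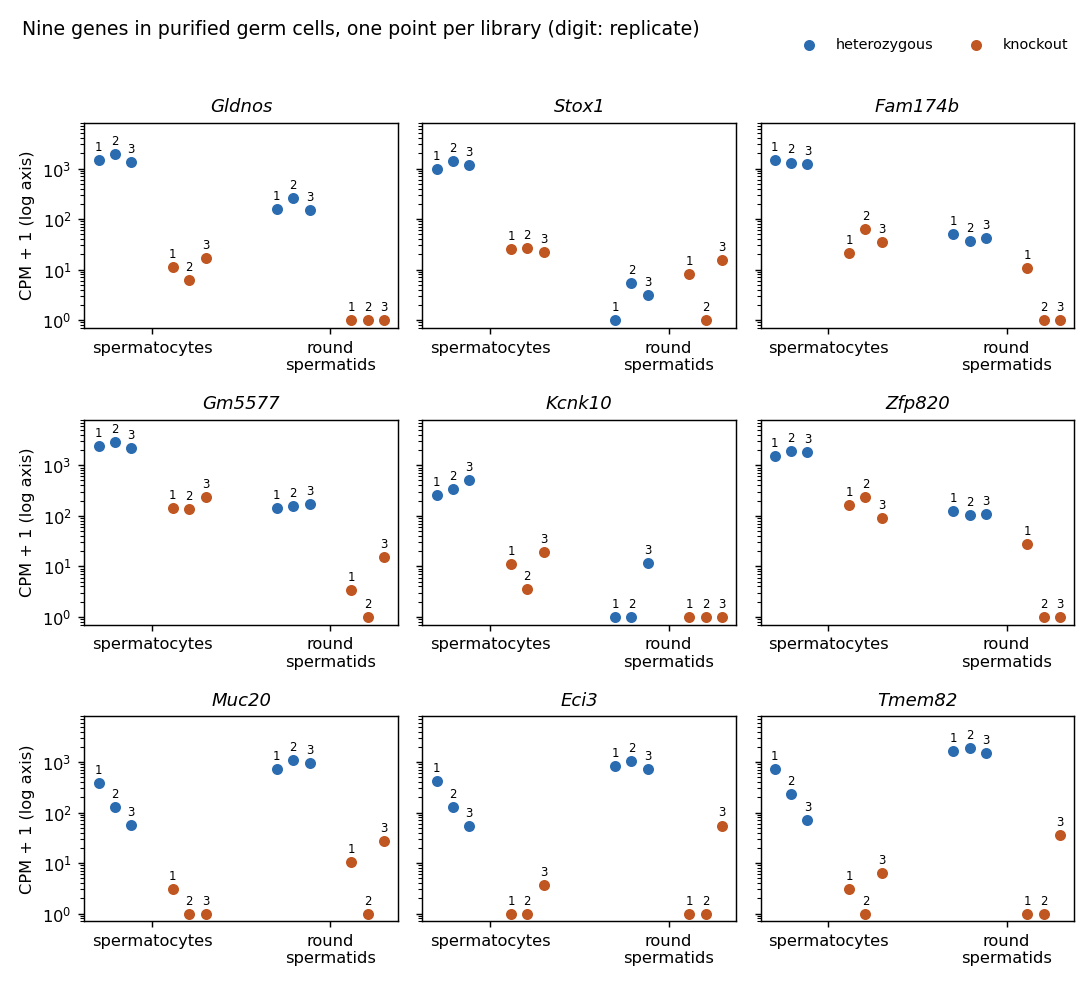
Level of each gene (CPM + 1, log axis) in purified spermatocytes and round spermatids, one point per library with its replicate number, heterozygous in blue and knockout in orange. In spermatocytes, whose counts were used to choose the 9 genes, the genotypes do not overlap in any panel. In the bottom row (*Muc20*, *Eci3*, *Tmem82*) heterozygous spermatocyte replicate 1 is the highest of its group and round spermatids are higher still.

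Round spermatids were compared next, since they did not enter the choice of genes. Of the 9 genes 7 passed the low-count filter, which their heterozygous libraries alone could carry, and 6 of these were lower in knockouts at an adjusted p below 0.05 (edgeR quasi-likelihood test, Benjamini-Hochberg over 6703 features). The 7 had 0 to 19 counts in each knockout library and passed through the heterozygous group. A lower value was thus likely from the outset, and their calls are a description. Of all features tested there, 18.4% were called lower and 19.6% higher. The median log2 difference was -5.65 over the 7 genes and -0.31 over all features, and the other scalings put that last value at 0.07 (total counts) and -1.24 (relative log expression), while the 6 called genes were lower under each. Of all calls in that table, 48.4% were lower ones, against 67.7% with relative log expression.

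*Tmem82* had 890, 838 and 713 counts in heterozygous round spermatids and 0, 0 and 12 in knockouts (log2 difference -7.23 ± 1.33, adjusted p = 0.00805, edgeR). *Muc20* had 390, 487 and 462 against 4, 0 and 9 (-6.31 ± 0.95, adjusted p = 0.00570, edgeR). *Eci3* had 453, 467 and 344 against 0, 0 and 19 (-5.65 ± 1.39, adjusted p = 0.0159, edgeR). None of these groups overlapped, which differences of this size make likely. The share of all features without overlap was not worked out, so nothing particular to these genes is read from it. *Gldnos* had 85, 119 and 71 counts in heterozygous libraries and 0 in each knockout library. With a floor of 3 counts over the knockout group it was at least 59.8-fold lower there (adjusted p = 0.00570, edgeR). *Gm5577* fell as well, from 76, 69 and 82 counts to 1, 0 and 5 (-4.78 ± 1.01, adjusted p = 0.00936, edgeR), and so did *Fam174b*, from 27, 16 and 20 to 4, 0 and 0 (-3.53 ± 1.18, adjusted p = 0.0482, edgeR).

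*Zfp820* had 68, 45 and 51 counts in heterozygous and 11, 0 and 0 in knockout round spermatids. The difference of -3.56 ± 1.30 missed the threshold (adjusted p = 0.0631, edgeR). *Stox1*, with 0, 2 and 1 counts against 3, 0 and 5, and *Kcnk10*, with 0, 0 and 5 against 0 in every knockout library, were too low to be tested. A difference in these genes was not detectable at this depth.

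These calls rest on few libraries, and so do the sizes. Without knockout replicate 3 the log2 difference was -12.54 for *Tmem82*, -11.59 for *Eci3*, -7.44 for *Muc20* and -6.63 for *Gm5577*, and without knockout replicate 1 it was -7.46 for *Fam174b*, so the fitted values give the direction and no firm size. Without any 1 of the 3 heterozygous libraries no gene of the 9 was called, without knockout replicate 1 the called ones were *Fam174b*, *Gldnos* and *Zfp820*, and with the replicate number as a block they were *Gldnos*, *Muc20* and *Tmem82*. The knockout libraries also held little RNA of the cell they are named for. The 8 round spermatid markers summed to 1233 to 2308 CPM in the heterozygous libraries and to 5.16 to 226 CPM in the knockouts, with *Acrv1* at 139, 76 and 63 counts against 1, 0 and 0, and the 6 spermatogonium markers to 4.18 to 13.4 CPM against 981 to 1635 CPM. Of the 5 leukocyte markers 4 are in the tables, and they summed to 1.84 to 8.36 CPM in heterozygous and 12.02 to 1465 CPM in knockout libraries, with *Lyz2*, which encodes a lysozyme of macrophages, at 0, 1 and 3 counts against 0, 111 and 346. *Sox9*, a defining Sertoli gene, was at 0 in all 3 knockout libraries, while the Sertoli list summed to 6.69 to 8.36 CPM against 0 to 421 CPM, with *Clu* at 117 counts in knockout replicate 3. The part of this makeup in the lower counts of the 6 genes was not tested.

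In whole testes most of the 9 genes were close to undetected. *Gldnos* and *Gm5577* had 0 counts in all 20 libraries, as had 8.65% of all features. *Kcnk10* had 0 to 3 counts per library, *Eci3* 0 to 5, *Stox1* 0 to 6 and *Tmem82* 1 to 14. Only *Fam174b* (1 to 23), *Muc20* (0 to 23) and *Zfp820* (17 to 306) passed the filter. Of the 1597 features at 100 CPM or more in heterozygous spermatocytes, a list that holds all 9 genes, 83 (5.20%) were under 1 CPM in the mean of every testis group, and 5 of the 9 genes were among these. Testis libraries were made with a kit that does not mark strand, unlike those of the purified cells.

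*Zfp820* was the 1 gene of the 9 that differed between genotypes in whole testes. At P18 it had 306, 290 and 164 counts in heterozygous testes and 64, 39 and 46 in knockout testes, or 33.1 ± 13.3 against 7.02 ± 1.01 CPM (n = 3 and 3). The log2 difference was -2.29 ± 0.27 (adjusted p = 1.74e-05, edgeR), at an age when 3.07% of the 16334 features tested were called lower and 0.355% higher. Leaving out any single library kept it called, with a log2 difference between -2.60 and -1.96.

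The difference was tied to age. In heterozygous testes *Zfp820* had 41 to 71 counts at P10 and 56 to 79 at P14, rose to 164 to 306 at P18 (P18 against P14 2.60 ± 0.30, adjusted p = 4.48e-07, edgeR; 30.2% of features rose and 24.9% fell) and fell to 17 and 23 at P28 (-3.66 ± 0.37 against P18, adjusted p = 3.85e-08, edgeR; 30.8% fell and 31.4% rose). Knockout testes stood at 73 to 110 counts at P10, 55 and 67 at P14, 39 to 64 at P18 and 30 and 31 at P28, without that peak. At P10, P14 and P28 the genotypes did not differ beyond the spread between libraries (0.47 ± 0.29, -0.26 ± 0.36 and 0.03 ± 0.49; adjusted p = 0.754, 0.894 and 0.970, edgeR). The genotype effect at P28 minus that at P18 was 2.31 ± 0.56 (adjusted p = 0.00552, edgeR; 11% of features had a higher and 12.7% a lower effect at P28). That split, 1798 higher and 2077 lower, was 759 and 2405 with relative log expression and 5489 and 1632 with total counts. The effect at P18 minus that at P14, -2.03 ± 0.46, missed the threshold (adjusted p = 0.130, edgeR; 0.0796% of features were lower and 0.0429% higher), and passed it with DESeq2, without the low-count filter and without P18 heterozygous replicate 3.

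**Figure D3:**
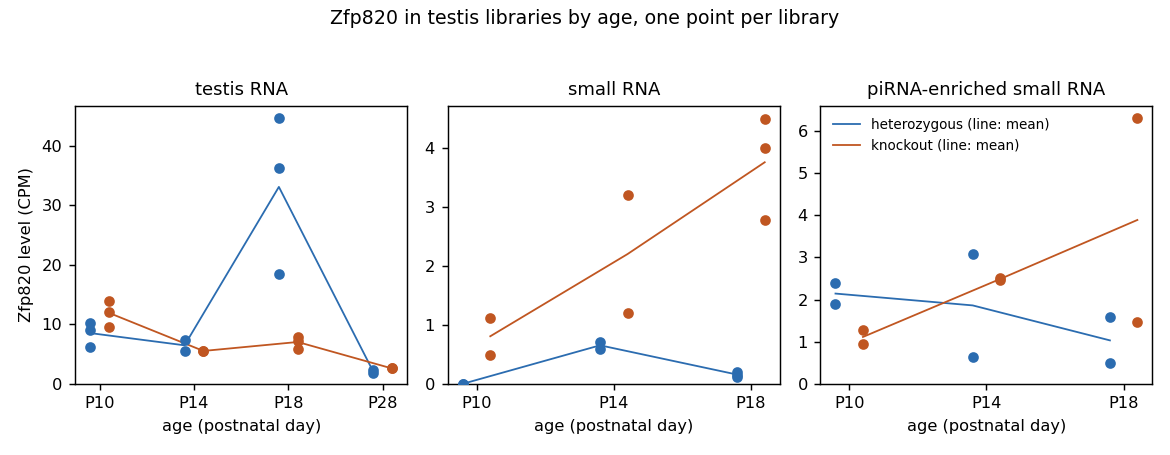
*Zfp820* level (CPM) by age in testis RNA, small RNA and piRNA-enriched small RNA, one point per library and a line through the group means, heterozygous in blue and knockout in orange. In testis RNA the 3 heterozygous P18 libraries stand above all others, with a mean of 33.1 CPM against 7.02 CPM in knockouts, and in small RNA the P18 order is the opposite, 0.156 against 3.76 CPM.

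*Fam174b* and *Muc20* did not differ between genotypes at any age. *Fam174b* had 13, 20 and 13 counts in heterozygous testes at P10, 6 and 12 at P14, 2, 6 and 6 at P18 and 1 and 3 at P28. It fell from P10 to P14 (-1.33 ± 0.46, adjusted p = 0.0206, edgeR; 25.4% of features fell and 28.6% rose), a call that was lost with DESeq2 (adjusted p = 0.0575 for *Fam174b*) and without heterozygous P10 replicate 2 (0.0938) or P14 replicate 1 (0.208). *Muc20* rose from 4 and 4 counts at P14 to 7, 8 and 18 at P18 (2.04 ± 0.53, adjusted p = 0.00266, edgeR), a call lost when only the libraries compared were fitted, and had 14 and 16 counts at P28 in heterozygous and 23 and 23 in knockout testes (0.03 ± 0.40, adjusted p = 0.952, edgeR). At P10 0.00612% of features were called lower and 0% higher, at P14 0.906% and 0.0857%, and at P28 25.1% and 25.7%. Lower ones were 49.4% of the P28 calls, 64.3% with relative log expression and 28.3% with total counts, which put the median of all features there at 0.12, -0.0028 and 0.42. None of the 3 tested genes was called at P10, P14 or P28 (edgeR), and none of them had an unadjusted p below 0.05 at those ages. With DESeq2 the counts were also 0. When only the P28 libraries were fitted, *Tmem82* was called there, with 14 and 11 counts in heterozygous and 9 and 7 in knockout testes.

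Small RNA over these genes was scarce. *Gldnos*, *Stox1*, *Gm5577* and *Kcnk10* had 0 counts in all 14 libraries without enrichment, and *Eci3* had at most 1, *Tmem82* 3, *Muc20* 4 and *Fam174b* 5. *Zfp820* was the exception. At P18 it had 4, 3 and 2 counts in heterozygous and 87, 55 and 43 in knockout libraries, or 0.156 ± 0.047 against 3.76 ± 0.89 CPM. Its small RNA was thus higher in the genotype with less of its longer RNA, which was measured in other libraries. The log2 difference was 2.37 ± 0.46 (adjusted p = 7.58e-04, edgeR), and 20.1% of the 10405 features tested were called higher and 17.7% lower at this age. *Zfp820* passed the low-count filter there through knockout libraries alone. A higher value was thus likely from the outset, and its call is a description. Scaling weighs on this value: with total counts the median of all features moved from -0.14 to 2.03 and *Zfp820* from 2.37 to 4.49, while lower calls went from 46.8% to 0.8% of all calls. *Zfp820* stayed called without any single library. At P14 it had 3 and 7 counts against 6 and 18 (0.51 ± 0.60, adjusted p = 0.794, edgeR; 1.37% of features higher and 0.923% lower), and at P10 0 and 0 against 2 and 5 (adjusted p = 1, edgeR; 0% in either direction).

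In the piRNA-enriched libraries *Zfp820* had 26 and 7 counts in heterozygous and 22 and 59 in knockout testes at P18 (-0.19 ± 0.42, adjusted p = 0.819, edgeR). Its groups overlapped there. *Fam174b*, with 2 and 1 against 3 and 4, was not called either (-0.24 ± 0.92, adjusted p = 0.905, edgeR). Both fitted values are below 0 although the CPM were higher in knockouts, with means of 1.03 against 3.89 for *Zfp820* and 0.0952 against 0.314 for *Fam174b*, because TMM scaling put the median of all features at 0.08 where total counts put it at 2.06. No direction is read from them. No gene of the 9 was called in these libraries at any age, while 0%, 0.319% and 1.05% of features were called lower and 0%, 0% and 8.8% higher at P10, P14 and P18. At P18 these were 135 lower and 1131 higher features, against 3 and 4591 with total counts. A neighbour of *Zfp820* in the tables, *Zfp229*, another zinc finger gene 67906 bases away, had 4 counts in each heterozygous and 15 to 49 in each knockout P18 small RNA library, a difference that was not called (0.71 ± 0.42, adjusted p = 0.194, edgeR). Zinc finger genes of this kind resemble each other, and how reads with several matches were counted is not given in the sources used here, so counts of *Zfp820* are uncertain to that extent.

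Whether other genes lie over or beside the 9 was read from the reference annotation, in which 98.3% of the features could be placed. Opposite-strand genes overlapped *Muc20*, *Eci3* and *Zfp820*. *Muc20*, on the minus strand, shares 4973 bases with *Muc4*, a mucin gene on the plus strand. *Eci3* shares 9605 bases with *4933417A18Rik* and starts 141 bases from *Gm16984*, a non-coding RNA on the other strand. *Zfp820* shares 21488 bases with the non-coding *Gm31758*. *Tmem82* contains 1235 bases of the non-coding *AI507597*, and *Gldnos* shares 15085 bases with *Gldn*, which encodes gliomedin, a protein of myelinated nerves, and its lower-coordinate end lies 415 bases from *Cyp19a1*, the aromatase gene. For *Gldnos* and *Tmem82* the table gives no strand. Also without strand are *Mir7215*, *Gm18514* and *Gm47261* within *Stox1*, *Gm40893* within *Kcnk10*, and *Gm51676* and *Gm51675* over *Gldnos*. Of these only *Mir7215* is in the count tables, and *Gm16984* and *Gm31758* are not. Close by, without overlap, lie *Ddx50*, 278 bases from *Stox1*, and *Slc25a34*, 185 bases from *Tmem82*.

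**Figure D4:**
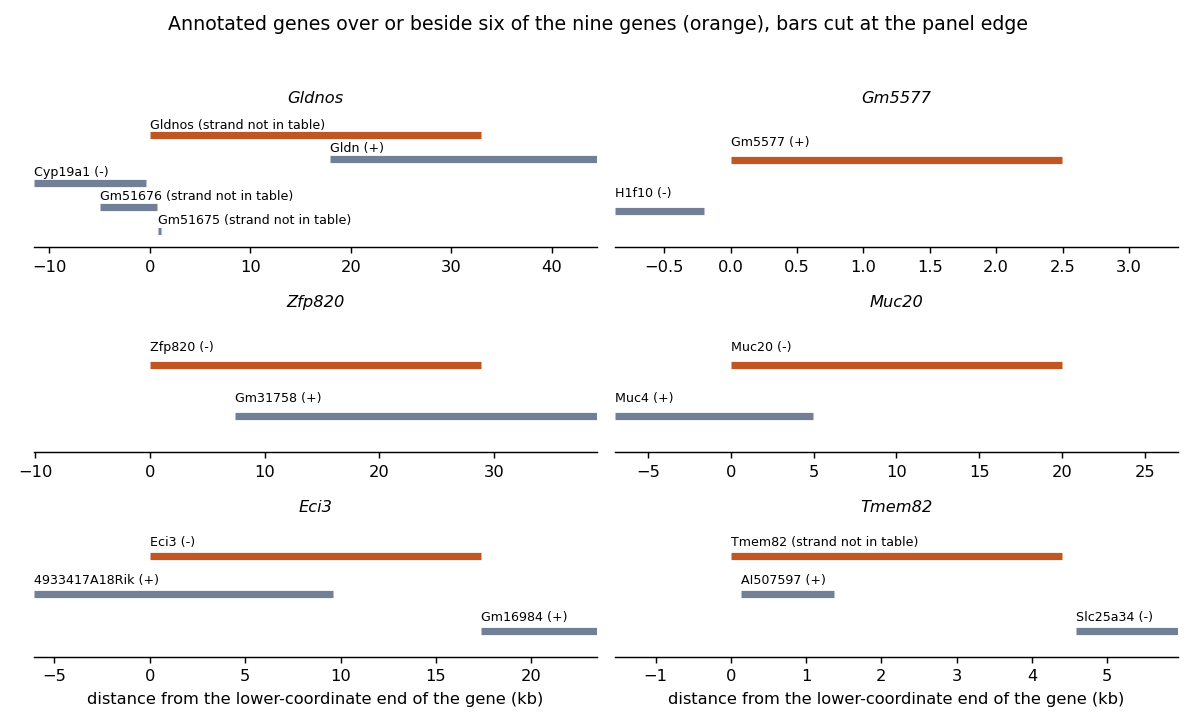
Span of 6 of the 9 genes (orange) and of annotated genes over or beside them (grey), as distance in kb from the lower-coordinate end of each gene, with the strand where the table gives one. *Muc20*, *Eci3* and *Zfp820* are overlapped by a gene on the other strand, and *Gm5577* lies 200 bases from *H1f10*.

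The genes overlapping *Muc20*, *Tmem82* and *Eci3* were lower in P28 knockout testes, where 25.1% of all features were called lower. *Muc20* itself was not called, and *Tmem82* and *Eci3* had too few counts to be tested. *Gldn*, over *Gldnos*, was not called at P28 (0.41 ± 0.56, adjusted p = 0.558, edgeR), and *Mir7215*, within *Stox1*, was not tested. *Muc4* had 125 and 149 counts in heterozygous and 2 and 10 in knockout P28 testes (-5.06 ± 0.45, adjusted p = 8.63e-09, edgeR), beside 14 to 16 against 23 for *Muc20*. The *Muc4* value ran from -6.55 without knockout replicate 2 to -4.36 without knockout replicate 1. *AI507597* had 459 and 525 against 1 and 4 (-8.12 ± 0.39, adjusted p = 4.17e-12, edgeR), beside 11 and 14 against 7 and 9 for *Tmem82*. The *AI507597* value was -9.29 without knockout replicate 2 and -7.49 without knockout replicate 1. *4933417A18Rik* had 282 and 347 against 0 and 0, at least 256-fold lower with a floor of 3 counts over the knockout group (adjusted p = 7.46e-08, edgeR; 0.155 with DESeq2), beside 1 and 1 against 0 and 1 for *Eci3*. *Muc4*, *AI507597* and *4933417A18Rik* were at 0 to 12 counts in every testis library from P10 to P18. All 3 passed the low-count filter through the heterozygous P28 libraries alone. A lower value in knockouts was thus likely from the outset, and their calls are a description.

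In round spermatids, counted from the strand-marking kit, the order within 2 of these pairs was the other way round. Heterozygous libraries had 344 to 467 counts of *Eci3* and 17 to 31 of *4933417A18Rik*, and 713 to 890 of *Tmem82* and 96 to 165 of *AI507597*. *Muc20* (390 to 487) and *Muc4* (318 to 502) were alike. Levels of different genes are not scaled by length here, so only the change of order within a pair between tables is described.

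**Figure D5:**
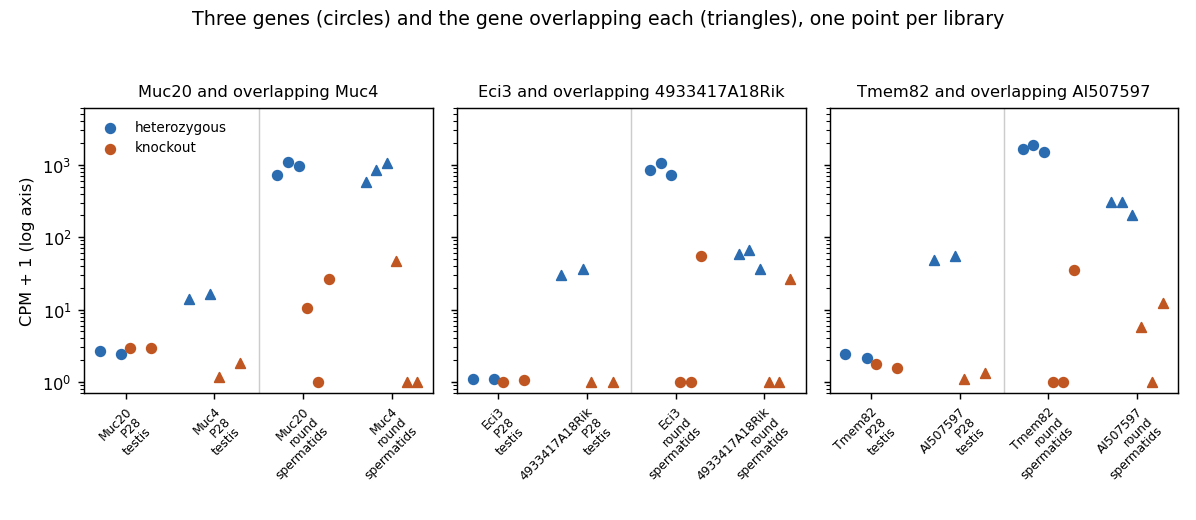
CPM + 1 (log axis) of *Muc20*, *Eci3* and *Tmem82* (circles) and of the gene overlapping each (triangles) in P28 testes (left of each grey line) and round spermatids (right), one point per library, heterozygous in blue and knockout in orange. In P28 testes the genotypes separate for the triangles and lie close together for the circles. In round spermatids both separate.

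The same comparison over all genes that overlap exactly 1 gene on the other strand (2632 genes with both in the tables) gave rank correlations across genes, which are not independent replicates. The level in heterozygous spermatocytes had a Spearman rho of 0.560 with the gene's own level in heterozygous P28 testes and of 0.370 with that of the overlapping gene. In round spermatids these were 0.616 and 0.311. Between P18 and P28 testes, both from the kit without strand, they were 0.914 and 0.165, and for the 21644 features outside such pairs the own-level rho of spermatocytes with P28 testes was 0.758. Single genes could be far apart between the tables: *Zfp385c*, named after its values were seen, stood at 7046 CPM in heterozygous spermatocytes and 0.514 CPM in heterozygous P28 testes, where *Nkiras2* on its other strand stood at 57.3 CPM. Testis libraries do not mark strand, so reads of a gene and of its opposite-strand partner cannot be told apart there by strand. For the purified cells the strand setting is not given, so whether counting separated them is not known. Whether the spermatocyte and round spermatid counts of the 9 genes are of their own RNA or of RNA from the opposite strand was not tested.

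Beyond the overlaps, 23 genes of the tables lie over or next to the 9. At P28 18 of them were tested, of which 7 were lower and 4 higher in knockouts, beside 25.1% and 25.7% of all features. Among the lower ones were *Spata7*, a gene named for spermatogenesis 49915 bases from *Kcnk10* (3013 and 3078 counts against 195 and 199), and *Fam217a*, 22255 bases from *Eci3* (-6.12 ± 0.22, adjusted p = 8.87e-15, edgeR). *Gm10619*, a non-coding RNA on the minus strand 31302 bases from *Fam174b*, had counts in the small RNA tables only. It had 16, 16 and 23 counts in heterozygous and 0 in each knockout library at P18, at least 15.5-fold lower with a floor of 3 counts over the knockout group (adjusted p = 1.97e-05, edgeR; 17.7% of features lower), and 6 and 23 against 0 and 0 at P14 (at least 6.89-fold lower, adjusted p = 0.0140, edgeR; 0.165 without knockout replicate 2), with 0 counts in every testis and germ cell library. *Gm10619* passed the low-count filter through heterozygous libraries alone, so a lower value was likely from the outset and its calls are a description. *H1f10*, which shares its start region with *Gm5577*, was listed at 0 in every library of the 5 tables.

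The distance from the 9 genes to intergenic piRNA loci could not be measured, since these loci are named by chromosome, band and a number and the tables give no coordinates. By chromosome alone, there are 6 such loci with *Gldnos* on chromosome 9, 11 with *Stox1* on 10, 10 with *Fam174b* on 7, 8 with *Gm5577* on 6, 2 with *Kcnk10* on 12 and 6 with *Zfp820* on 17, and 0 with *Muc20* on 16, 8 with *Eci3* on 13 and 7 with *Tmem82* on 4. In P18 testes 32 of the 43 loci on the first 6 chromosomes were lower in knockouts, and 2 of the 15 on the last 3, beside 57 of 99 intergenic loci in all. In P18 small RNA the counts were 30 of 43, 9 of 15 and 68 of 99. Both loci on chromosome 12, *12-qE-23911* and *12-qE-7089*, were lower in P18 testes (-7.61 ± 0.32 and -7.07 ± 0.32; adjusted p = 5.63e-11 and 2.11e-10, edgeR), and none of the 8 on chromosome 13 was. The loci of a chromosome can lie far apart, so this says nothing about neighbours.

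Loci named after a gene can be placed, and 107 of the 114 were. None of the 9 genes and none of the 23 genes over or next to them carries one. The nearest were 740231 bases from *Gm5577* (*Mgll*), 1206252 from *Stox1* (*Eif4ebp2*), 2415520 from *Gldnos* (*Arhgap20*) and 3115466 from *Zfp820* (*Cramp1l*), and those of the other 5 genes were farther.

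Relatives by gene family were read as a fixed list of 10: *Stox2*, *Fam174a*, *Kcnk2*, *Kcnk4*, *Kcnk13*, *Eci1*, *Eci2*, *Muc1*, *Muc4* and *Gldn*. None of the 9 that could be tested in testes was called at P10, P14 or P18, when at most 3.07% of all features were called lower and 0.355% higher. At P28 3 were lower, *Muc4*, *Stox2* (185 and 208 counts against 71 and 80; -1.96 ± 0.19, adjusted p = 4.79e-08, edgeR) and the potassium channel gene *Kcnk2* (-0.87 ± 0.25, adjusted p = 0.00799, edgeR), and 3 were higher, *Eci2*, which encodes another enoyl-CoA isomerase and lies 13759 bases from *Eci3* (0.62 ± 0.12, adjusted p = 3.02e-04, edgeR), *Kcnk13* and *Eci1*. At P28 25.1% of all features were called lower and 25.7% higher, so no result about the relatives is read from these counts. The call was lost for *Kcnk2* (adjusted p = 0.0777) and *Eci1* (0.280) without knockout replicate 1 and for *Kcnk13* (0.133) without heterozygous replicate 2. In spermatocytes only *Muc4* had enough counts to be tested, with 104, 40 and 63 counts in heterozygous replicates 1 to 3 and 50, 39 and 39 in knockouts. In CPM the *Muc4* levels were 124.3 to 202.2 against 101.3 to 103.6, and the log2 difference of -0.57 was not called.

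Over the 20 testis libraries, the features most like the 3 tested genes in log2 CPM were *Slc22a17* (Pearson r = 0.939), *Fzd4* (0.933) and *Ksr1* (0.931) for *Fam174b*, *Ivns1abp* (0.819), *Zfp386* (0.802) and *Zfp951* (0.791) for *Zfp820*, and *Dnajc28* (0.937), *Cdh26* (0.932) and *Hunk* (0.928) for *Muc20*. Of the intergenic piRNA loci on the same chromosome, the most like *Fam174b* was *7-qD2-40* (r = 0.745 among 10 loci), and the most like *Zfp820* reached 0.394 among 6 loci. The libraries share age and depth, and these values are a description without a test.

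The list of 9 does not hold every gene that was far lower in knockout spermatocytes. Among genes, 30 others had a larger fitted difference than the smallest of the 9. In all 30 the genotypes did not overlap, which a difference of that size makes likely. Examples outside the list are *4930542D17Rik* (420, 118 and 46 counts against 1, 1 and 2) and *Gm16325* (778, 166 and 65 against 4, 2 and 2), which share the pattern of a high heterozygous replicate 1, and *Ranbp6* (1415, 850 and 695 against 162, 109 and 126; log2 difference -2.86 ± 0.33). Just inside the list stood *Zfp820* at -3.38, and just beyond it *Gnai2* at -3.35, *Ndufa13* at -3.32 and *Ace* at -3.27. In the spermatocyte table as a whole 131 of 4618 features (2.84%) were called lower. The targeted gene could not check the labels of these libraries, since *Btbd18* had 0 to 1 counts in spermatocytes and 0 to 3 in round spermatids. In testes it had 54 to 215 counts in heterozygous and 14 to 37 in knockout libraries and was lower at every age.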

How the data were processed

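The authors deposited raw counts of reads for genes and piRNA loci in 5 tables, per the file headers and values: testis RNA, spermatocytes, round spermatids, small RNA and piRNA-enriched small RNA. Per the submitters' processing notes, the tools were cutadapt 1.8.1, TopHat2 2.1, Subread 1.4.6-p3 with featureCounts, and Cufflinks for RNA, TopHat and featureCounts for small RNA, and build mm10 for both. Strand, overlap and multi-match settings are not given in the sources used here. Groups come from the labels. 1 small RNA column of the P18 heterozygous group carries no sure replicate number and was used as unnumbered.

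The fit for each table was edgeR 4.0.16 under R 4.3.3: low-count features removed by group with filterByExpr, scaling by TMM, a quasi-likelihood F test with 1 spread over all libraries of a table, and Benjamini-Hochberg adjustment over all tested features at a threshold of 0.05. Log2 differences are knockout minus heterozygous unless ages are named, with their standard error. Levels are CPM of the deposited counts, with the SD between libraries. Small RNA libraries held 4033034 to 20310440 counts and piRNA-enriched ones 2504450 to 16461210. On simulated data, 4-fold changes were found for 94% to 98% of changed genes in testes, 77% in spermatocytes, 0% in round spermatids, 54% to 93% in small RNA and 46% to 85% in piRNA-enriched libraries. Whether libraries are separate animals is not stated in the labels. If they are not, the p-values reflect technical spread.

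Genes named are the 9, the genes over or next to them, a list of relatives, the 3 features most correlated with each tested gene, the piRNA locus most like it on its chromosome, and the genes next in size of difference. *4930542D17Rik*, *Gm16325* and *Ranbp6* were named after their values were seen. The 9 genes and the lists were chosen with earlier results of these data known. Alternatives were relative log expression (RLE) scaling, total counts, no filter, only the libraries compared, DESeq2 1.42.0, the replicate number as a block and each library left out. Erythroid markers were at 0 in all purified libraries. Peritubular markers summed to 0 to 12.6 CPM in spermatocytes and 0 to 169 CPM in round spermatids, Leydig markers to 488 to 712 CPM and 0 to 381 CPM, and spermatogonium markers to 5.83 to 48.3 CPM in spermatocytes.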

Additional observations from a re-analysis of the deposited data

Results flagged for a closer look

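In testes 10 genotype effects differed between P18 and P28 by a test of the difference itself (edgeR, all 20 libraries), where 12.7% of features had a lower and 11% a higher effect at P28. The split depends on scaling: 2077 lower and 1798 higher with TMM, 2405 and 759 with RLE, 1632 and 5489 with total counts. For *Zfp820* the effect was 2.31 higher at P28 (adjusted p = 0.00552). Among the genes over or next to the 9, the effect at P28 was lower by a log2 difference of -7.70 for *AI507597*, -5.08 for *Fam217a*, -4.21 for *Spata7*, -3.40 for *Muc4* and -2.16 for *Cyp19a1*, and higher by 0.68 for *Eci2*, 0.66 for *Rab7* and 0.37 for *Tnk2*. For the relative *Stox2* it was -2.003. *AI507597* and *Muc4* passed the low-count filter through the heterozygous P28 libraries alone, so their lower effects at P28 were likely from the outset. The calls of *AI507597*, *Muc4*, *Cyp19a1*, *Eci2*, *Rab7* and *Tnk2* were lost without single libraries: *AI507597* without P18 knockout replicate 1 (-4.74, adjusted p = 0.972), *Muc4* without P18 knockout replicate 3 (-2.74, adjusted p = 0.146) or P28 knockout replicate 1 (-2.70, adjusted p = 0.0567), *Cyp19a1* without P28 knockout replicate 2 (-1.77, adjusted p = 0.0708) and *Eci2* without P28 heterozygous replicate 2 (0.50, adjusted p = 0.0915). *Rab7* and *Tnk2* also lost it with RLE scaling, with DESeq2 and with no filter.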

How the results depend on the processing

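Of 198 recomputed counts of called genes, 182 stayed within 1.5 times of the value reported and 16 did not. In round spermatids the count of 6 ranged from 0 to 7 when 1 library was left out, and the simulated 4-fold changes were not found there, so depth and spread limit these calls. When only the libraries compared were fitted, the count was 1 at P28 (0 reported), 1 for heterozygous P18 against P14 (2 reported) and 2 for P28 against P18 (1 reported). Without the low-count filter it was 2 for heterozygous P28 against P18 and 1 for the genotype effect at P18 minus P14 (0 reported), and with DESeq2 1 for the latter and 0 for heterozygous P14 against P10 (1 reported). With 1 library left out these counts ran from 0 to 1 (P14 against P10 and P18 minus P14) and from 1 to 2 (P28 against P18). The cause was not tested.

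Same-numbered libraries did not deviate together in every pair of any comparison with 3 pairs (correlations of deviations -0.222 to -0.101 in P18 testes, 0.022 to 0.074 in P10 testes, -0.025 to 0.041 in round spermatids, and 0.229, -0.011 and 0.295 in spermatocytes), so the replicate numbers were not taken as a pairing. With 2 numbered pairs they were 0.323 in P14 small RNA, 0.107 and 0.18 in P18 small RNA, 0.183 in P14 piRNA-enriched small RNA and -0.021 to 0.043 in the others. With the replicate number as a block, 3 genes were called in round spermatids in place of 6, and the number called in the other comparisons stayed the same: 1 in P18 testes, 1 in P18 small RNA, 0 at P10, P14 and P28.

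Scaling decides the sign of small RNA values near the median. With total counts in place of TMM, P18 small RNA values turned to 0.81 for *Btbd18*, 1.19 for *Ccar1*, 1.29 for *Ddx50* and 1.10 for *Fblim1*, from -1.39, -0.99, -0.88 and -1.10. The P18 piRNA-enriched value of *Btbd18*, 2.38, ran from -0.053 to 3.27 when 1 library was left out, the lowest without knockout replicate 1.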
